A study of Mus musculus with 17 samples.

Results

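The genes described here encode the proton pump that acidifies lysosomes (the V-ATPase, genes Atp6v and Atp6ap), the cathepsins, which are the proteases of the lysosome, and the membrane glycoproteins Lamp1 and Lamp2. They were chosen by gene symbol in the platform's probe annotation, with earlier results of these data known. No measured value entered the rule, except that where a gene had several probe sets the one of highest mean level stood for it. The choice gave 42 genes, covered by 84 probe sets, of 18193 genes with a probe set of 1 symbol. They are 12 subunits of the V1 part of the pump, 8 of the V0 part, 2 accessory proteins, 18 cathepsins and 2 LAMP genes. The pump genes Atp6v0c and Atp6v1g3 were not among the probe sets with 1 symbol and were not analysed here.

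Pancreatic islets of untreated C57BL/6 mice were measured directly after isolation (0 h) and after culture for 24 h or 48 h. Each of 6 batches was a pool of islets from 4 mice, split into 3 portions, 1 for each time. The portions were kept in F12K medium with fetal bovine serum, and each was measured on 1 single-colour Affymetrix mouse array after its RNA had been amplified by a PCR-based step. The 17 arrays comprised 5 at 0 h (batches 1, 2, 3, 4 and 6), 6 at 24 h and 6 at 48 h, and of batch 5 only the cultured portions were analysed here. By the labels, strain and lack of treatment were common to all arrays and time in culture was the single factor; the labels give no age. No islets kept in the animal for the same time were measured, and each array held a mixture of endocrine, exocrine, vascular, connective and immune cells.

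The V-ATPase is a rotary enzyme. Its V1 part splits ATP in the cytosol and turns a rotor that drives protons through the V0 part in the membrane, and the low pH that results activates the cathepsins. In the beta cell the same pump also acidifies insulin granules, and lysosomes there degrade surplus granules. LAMP proteins make up much of the lysosomal membrane. Many genes of this system carry the letters CACGTG in their promoters, within a longer element called CLEAR that is bound by the transcription factor TFEB and its relatives.

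Every array gave each probe set 1 value on the log2 scale, so that a difference of 1 is a doubling. The array medians lay between 3.47 and 3.57, and the correlation of any pair of arrays over all probe sets lay between 0.976 and 0.995. Within a time, the 0 h array of batch 3 (median correlation 0.987) and the 24 h array of batch 5 (0.988) were the least like the rest. The endocrine label held in the data, with the insulin gene Ins2 at a mean of 13.7 and the glucagon gene Gcg at 12.8. The table's median level was 3.52, and signal under it was not separated from background. Of the 42 genes, 31 had a mean above this median. The other 11 were Atp6v1b1, Atp6v1c2, Atp6v1e2, Atp6v0a4, Atp6v0d2, Ctsg, Ctsj, Ctsm, Ctsq, Ctsr and Ctsw, with means from 2.14 to 3.42. Ctsj, Ctsm, Ctsq and Ctsr belong to a rodent family known from the placenta. None of these 11 passed the test in any of the 3 comparisons, with a lowest adjusted p of 0.142.

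The first question was how the members differed between freshly isolated and cultured islets. At 24 h against 0 h, 5 of the 42 genes were higher and 0 were lower by limma at an adjusted p under 0.05. The 5 were Atp6v1a, Ctsb, Ctsk, Ctsl and Lamp2. Over all 18193 genes 5.44% were higher and 6.66% lower in this comparison, against 11.9% and 0% of the members. Among genes above the table's median 7.96% were higher, against 5 of 31 members (16.1%). At 48 h against 0 h, 9 of 42 members were higher and 0 lower, namely Atp6v1a, Atp6v1b2, Atp6v1c1, Atp6v1h, Ctsb, Ctsc, Ctsk, Ctsl and Lamp2. The share of all genes that were higher was 6.45% in that comparison (5.27% were lower), that of genes above the table's median 9.44%, and that of the members 21.4% (29.0% of the 31 above the median). Both comparisons use the same 0 h arrays. Among the 31 members above the table's median, every array of 24 h lay above every 0 h array for 3 (5.61% of genes above the median did so), and every array of 48 h for 7 (7.59% of genes). The count of members past the test at 48 h was 5 when the 0 h array of batch 2 or that of batch 3 was left out. When the fit was blocked by isolation batch, which compares the portions of the same pool, 7 members were higher and 2 lower at 24 h, and 6 were higher and 0 lower at 48 h. The shares of all genes printed above come from the fit without blocks, and none is given here for the blocked fit.

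Over the 31 members above the table's median, the median log2 difference was 0.09 at 24 h and 0.13 at 48 h, against -0.02 and -0.00 over all genes above it. At both times the lowest value was that of Ctss (-0.51 and -0.24). The highest was that of Ctsb at 24 h (0.93) and that of Ctsc at 48 h (1.32). In whole islets, a change in the RNA of each cell and a change in the share of a cell type cannot be told apart.

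**Figure D1:**
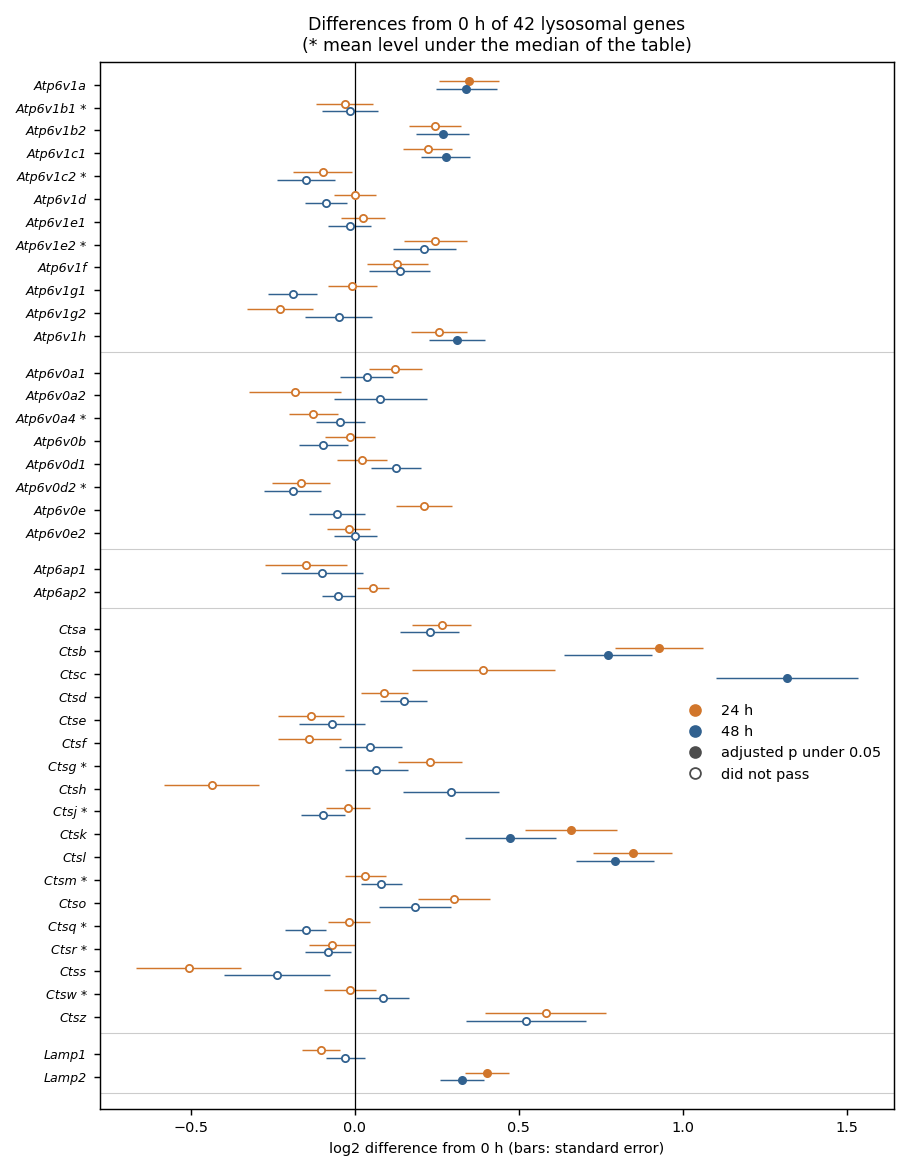
Log2 difference from 0 h (x axis) of each of the 42 genes (y axis, by role) at 24 h (orange) and 48 h (blue), with bars for the standard error and filled points where the adjusted p was under 0.05; an asterisk marks a mean level under the table's median. The filled points all lie to the right of 0, and none belongs to the V0 subunits or the accessory proteins.

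The promoters are shown to let the CACGTG motif be read beside the values, because this motif is the one known from lysosomal genes. RefSeq windows from 250 bases before to 50 after a start site (build GRCm38.p6) were found for 32 of the 42 genes. The motif CACGTG, which reads the same on both strands, occurred in the windows of 9 of the 32 (Atp6v0b, Atp6v0d1, Atp6v0e, Atp6v1a, Ctsa, Ctsd, Ctsf, Ctsl and Lamp1). It occurred in 7.15% of all 32851 windows of that length and in those of 8.09% of 27025 genes. The longer form TCACGTGA, which contains it, occurred in 5 of the 32 (Atp6v0d1, Atp6v0e, Atp6v1a, Ctsa and Ctsd) and in 0.974% of all windows, or those of 1.12% of genes. Stretches of 6 promoters are printed 5′ to 3′ on the strand of the gene, with each CACGTG in capitals. They comprise the member window with the most copies (Lamp1), its relative without a copy (Lamp2), and a pump gene and a cathepsin gene from those that passed the test (Atp6v1a, Ctsl) and from those that did not (Atp6v0b, Ctsd).
Lamp1: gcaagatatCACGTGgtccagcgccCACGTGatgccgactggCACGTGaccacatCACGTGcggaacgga
Lamp2: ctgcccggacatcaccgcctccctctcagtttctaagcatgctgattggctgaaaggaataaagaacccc
Atp6v1a: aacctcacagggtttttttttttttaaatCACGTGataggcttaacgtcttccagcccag
Ctsl: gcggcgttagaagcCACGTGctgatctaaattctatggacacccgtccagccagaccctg
Atp6v0b: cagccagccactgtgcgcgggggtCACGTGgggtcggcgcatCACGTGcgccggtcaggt
Ctsd: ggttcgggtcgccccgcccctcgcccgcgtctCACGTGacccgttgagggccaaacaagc

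These stretches lie at chr8:13159091-13159160 (plus strand) for Lamp1, chrX:38456461-38456530 (minus) for Lamp2, chr16:44139360-44139419 (minus) for Atp6v1a, chr13:64370711-64370770 (minus) for Ctsl, chr4:117887330-117887389 (minus) for Atp6v0b and chr7:142387898-142387957 (minus) for Ctsd. Those of Lamp1, Lamp2 and Atp6v0b end at the last base before the start site. The Lamp1 stretch holds 4 copies of the motif, the Atp6v0b stretch 2, and the Lamp2 window none. Among the members with a window that passed the test in any comparison, 2 of 5 held the motif. Atp6v1b2, Atp6v1c1, Atp6v1h, Ctsb and Ctsh also passed in a comparison but had no window. Among members with a window and a mean above the table's median that passed in no comparison, 7 of 18 held it. A match of letters is a description of the sequence and not of binding.

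Among the V1 subunits, which split ATP and drive the rotor, 1 of 12 was higher at 24 h and 4 of 12 at 48 h, with 0 lower at either time. The share at 24 h (8.33%) was near that of all genes (5.44%), and at 48 h it was 33.3% against 6.45%. Of the 4 that passed at 48 h, only Atp6v1a still passed in the limma fit with the batch as a block (adjusted p = 0.0159). The 9 subunits above the table's median had a median difference of 0.13 at 24 h and 0.14 at 48 h. Atp6v1a encodes the catalytic subunit A. Its level on the 0 h arrays, in the order of batches 1, 2, 3, 4 and 6, was 9.63, 9.42, 9.94, 9.68 and 9.83. On the 24 h arrays it ran from 9.79 over a median of 10.05 to 10.30, and at 48 h from 9.98 over 10.04 to 10.15. The 48 h arrays all lay above the 0 h arrays, whereas the 24 h arrays overlapped them through batch 2. The difference was 0.35 ± 0.09 (SE, adjusted p = 0.0210) at 24 h and 0.34 ± 0.09 (adjusted p = 0.0250) at 48 h, and it was positive in 5 of 5 batches at both times. The call at 24 h was lost without the 0 h array of batch 1 or 2 (highest adjusted p = 0.0669) and in a fit of only the 0 h and 24 h arrays (adjusted p = 0.0652). That at 48 h was lost without the 0 h array of batch 1, 2 or 4 or the 48 h array of batch 6 (highest adjusted p = 0.0729), and after a second quantile normalization (adjusted p = 0.0605).

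Subunit B2, which shares the nucleotide-binding sites with subunit A and is encoded by Atp6v1b2, stood at 10.14, 10.15, 10.07, 10.08 and 10.18 on the 0 h arrays. It ran from 10.11 over 10.38 to 10.57 at 24 h and from 10.25 over 10.39 to 10.54 at 48 h. All 48 h arrays lay above the 0 h arrays. The difference at 48 h was 0.27 ± 0.08 (adjusted p = 0.0430), positive in 5 of 5 batches. This call was lost with the batch as a block (adjusted p = 0.103) and in 11 of 17 leave-one-out fits (highest adjusted p = 0.0973, without the 0 h array of batch 4). It passed in 7 of 12 other settings (highest adjusted p = 0.136, with the mean of the gene's probe sets). That mean takes in probe sets at 2.43 and 3.15, which lie under the table's median. At 24 h the difference was 0.24 ± 0.08 (adjusted p = 0.0657).

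Atp6v1c1 encodes subunit C, which links V1 to V0 and leaves when the pump comes apart. Its 0 h levels were 10.71, 10.48, 10.28, 10.67 and 10.62. The 24 h arrays ran from 10.66 over 10.80 to 10.86, and at 48 h from 10.76 over 10.83 to 10.93. Here too the 48 h arrays did not overlap the 0 h arrays. The difference at 48 h was 0.28 ± 0.07 (adjusted p = 0.0251, blocked by batch 0.0747). It did not pass without the 0 h array of batch 2 or 3 or the 48 h array of batch 3 (highest adjusted p = 0.0730), and it passed in 8 of 12 other settings. At 24 h it was 0.22 (adjusted p = 0.0761).

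Atp6v1h encodes subunit H, a regulator of the assembled pump. It stood at 10.28, 10.14, 9.91, 9.94 and 9.97 on the 0 h arrays. After 24 h it ran from 10.10 over 10.31 to 10.45, and at 48 h from 10.21 over 10.37 to 10.54. Batch 1 was the highest at 0 h, and its level overlapped the later arrays. The difference at 48 h was 0.31 ± 0.09 (adjusted p = 0.0291, blocked by batch 0.0818) and was positive in 4 of 5 batches. The call was lost in 6 of 17 leave-one-out fits (highest adjusted p = 0.0828, without the 0 h array of batch 4). It passed in 6 of 12 other settings, and with the mean of the gene's probe sets the adjusted p was 0.599. That mean takes in probe sets at 2.05 and 3.30, which lie under the table's median. At 24 h the difference was 0.26 (adjusted p = 0.0754).

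The V1 subunits of the rotor and the outer stalks did not pass by their representing probe sets. Atp6v1d and Atp6v1f, of the rotor, differed by 0.00 and 0.13 at 24 h and by -0.09 and 0.14 at 48 h. Atp6v1e1 and Atp6v1g1, of the stalks, differed by 0.02 and -0.01 at 24 h and by -0.02 and -0.19 at 48 h. Atp6v1g2, the form of subunit G known from neurons, had a mean of 3.68, close to the table's median, and differed by -0.23 and -0.05. The 95% interval for Atp6v1d was -0.14 to 0.14 at 24 h and -0.22 to 0.05 at 48 h.

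None of the 8 V0 subunits, which form the proton path in the membrane, passed in either comparison with 0 h by their representing probe sets. Another probe set of Atp6v0a1 was higher at both times (0.76 and 0.61), as given further below. The 6 with a mean above the table's median were Atp6v0a1, Atp6v0a2, Atp6v0b, Atp6v0d1, Atp6v0e and Atp6v0e2, and their median difference was 0.00 at 24 h and 0.02 at 48 h. Atp6v0d1, which couples the rotor to the membrane ring, differed by 0.02 (95% interval -0.14 to 0.18) at 24 h and by 0.13 (-0.03 to 0.29) at 48 h. Atp6v0b, of the ring, differed by -0.01 (-0.17 to 0.14) and -0.10 (-0.25 to 0.06). Atp6v0e, a small membrane subunit, had the largest positive value of the group at 24 h, 0.21 (0.03 to 0.39, adjusted p = 0.155), and stood at -0.05 at 48 h. Atp6v0a2 had the lowest at 24 h, -0.18 (adjusted p = 0.551).

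The accessory proteins did not pass either. Atp6ap1, which guides assembly of V0, stood at 10.58, 10.46, 10.98, 10.58 and 10.63 on the 0 h arrays. It ran from 10.19 over 10.47 to 10.85 at 24 h and from 10.12 over 10.57 to 10.79 at 48 h, so that the times overlapped widely. Its difference was -0.15 (95% interval -0.41 to 0.12) at 24 h and -0.10 (-0.36 to 0.16) at 48 h. Atp6ap2, also known as the prorenin receptor, differed by 0.06 and -0.05, with intervals of -0.05 to 0.16 and -0.15 to 0.05.

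Among the 18 cathepsins, 3 were higher at 24 h (16.7%, against 5.44% of all genes) and 4 at 48 h (22.2%, against 6.45%), and 0 were lower. The 12 above the table's median had a median difference of 0.28 at 24 h and 0.26 at 48 h. Ctsb encodes cathepsin B, a cysteine protease found in most cells. It stood at 9.82, 9.56, 10.09, 9.74 and 9.66 on the 0 h arrays. On the 24 h arrays it ran from 10.57 over 10.65 to 11.02, and at 48 h from 10.22 over 10.47 to 11.08. Both later times lay wholly above the 0 h arrays. The rise was 1.90-fold at 24 h (0.93 ± 0.13, adjusted p = 0.000123) and 1.71-fold at 48 h (0.77 ± 0.13, adjusted p = 0.000915), and it was seen in 5 of 5 batches at each.

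Ctsl encodes cathepsin L, a cysteine protease that degrades proteins in lysosomes and also cuts some prohormones. Its 0 h levels were 10.47, 10.40, 10.97, 10.19 and 10.43, with batch 3 the highest. It ran from 11.13 over 11.38 to 11.50 at 24 h and from 11.07 over 11.26 to 11.57 at 48 h, again with no overlap with 0 h. The rise was 1.80-fold at 24 h (0.85 ± 0.12, adjusted p = 9.91e-05) and 1.73-fold at 48 h (0.79 ± 0.12, adjusted p = 0.000264), in 5 of 5 batches. The calls for Ctsb and Ctsl held in all 17 fits that left out 1 array.

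Ctsk encodes cathepsin K, the collagen-degrading enzyme of osteoclasts, which is also made by activated fibroblasts and macrophages. It lay low on the scale, at 3.55, 3.67, 3.42, 3.89 and 3.62 at 0 h, where the array of batch 3 was under the table's median. The 24 h arrays ran from 3.74 over 4.37 to 4.53, and at 48 h from 3.85 over 4.04 to 4.46, and at both times the lowest array overlapped the highest at 0 h. The difference was 0.66 ± 0.14 (adjusted p = 0.00435) at 24 h and 0.47 ± 0.14 (adjusted p = 0.0410) at 48 h, positive in 5 of 5 batches. The call at 48 h was lost in 7 of 17 leave-one-out fits (highest adjusted p = 0.105, without the 0 h array of batch 3).

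Ctsc encodes cathepsin C, also called dipeptidyl peptidase 1, which activates serine proteases of immune cells. Its 0 h arrays were spread widely, at 6.33, 5.97, 6.79, 5.68 and 7.13. After 24 h it ran from 6.30 over 6.79 to 7.17, within reach of the 0 h arrays, and at 48 h from 7.43 over 7.68 to 8.01, above every earlier array. The difference was 0.39 ± 0.22 (adjusted p = 0.349) at 24 h and 1.32 ± 0.22 (adjusted p = 0.000588) at 48 h, a 2.49-fold rise that was positive in 5 of 5 batches by 0.30 to 2.13. Between 48 h and 24 h it was 0.93 ± 0.21, positive in 6 of 6 batches, with an adjusted p = 0.0539.

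Ctsd encodes cathepsin D, the main aspartic protease of the lysosome. It stood at 9.11, 9.09, 9.19, 9.06 and 9.18 at 0 h, from 9.15 over 9.20 to 9.34 at 24 h and from 9.09 over 9.26 to 9.53 at 48 h. The difference was 0.09 (95% interval -0.06 to 0.24) at 24 h and 0.15 (0.00 to 0.30, adjusted p = 0.235) at 48 h.

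**Figure D2:**
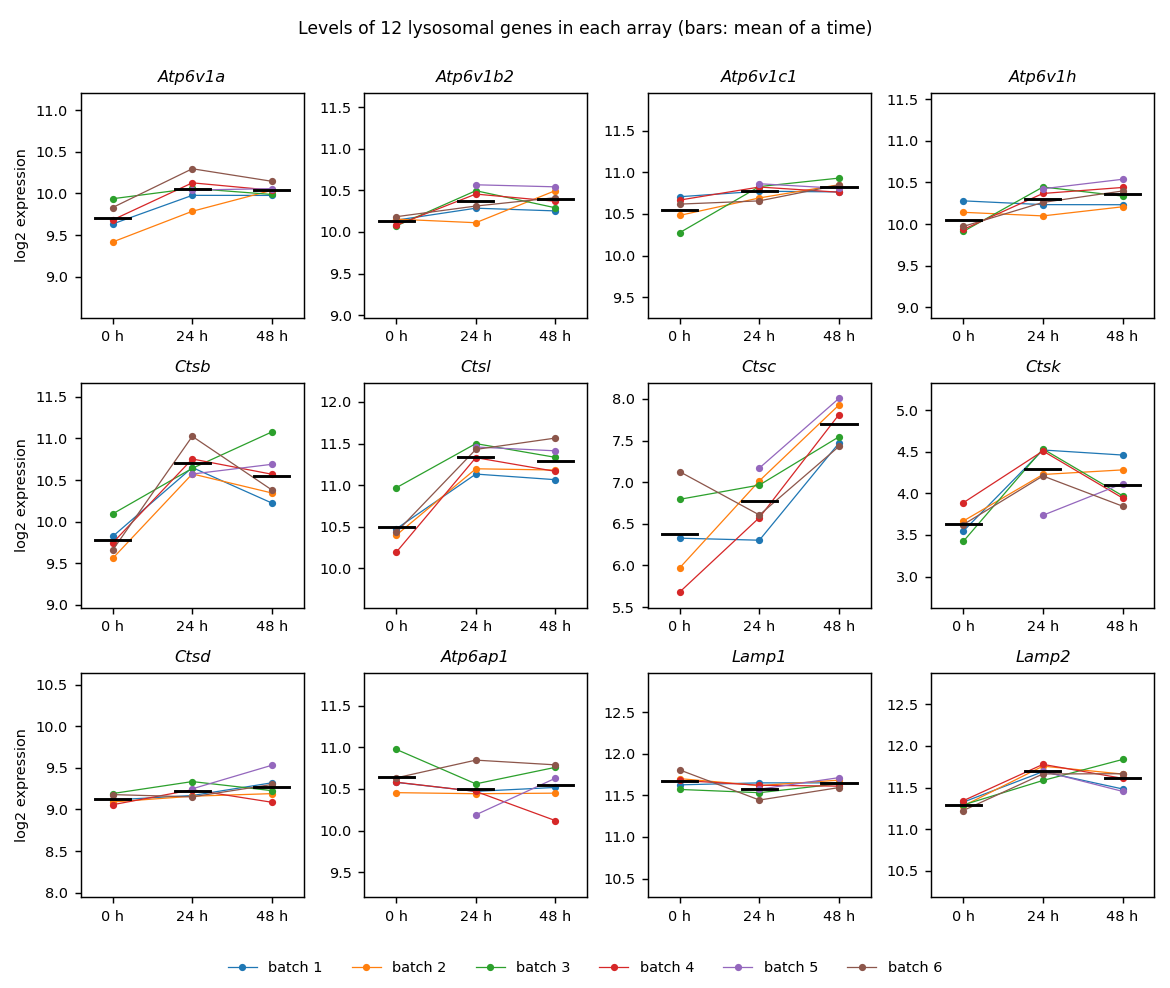
Log2 expression (y axis) at the 3 times (x axis, in hours) of 12 genes on each array, with a line for each batch and a black bar for the mean of a time; all panels span the same range of the log2 scale. For Ctsb, Ctsl and Lamp2 every 24 h and 48 h array lies above every 0 h array, for Ctsc this holds at 48 h, and for Ctsd, Atp6ap1 and Lamp1 the times overlap.

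The remaining cathepsins were described after their values had been seen. Ctsz, for the carboxypeptidase cathepsin Z, stood at 8.38, 7.69, 8.39, 7.78 and 8.13 at 0 h and had medians of 8.71 at 24 h and 8.63 at 48 h. Its difference was 0.58 ± 0.18 at 24 h (adjusted p = 0.0584, blocked by batch 0.0276) and 0.52 ± 0.18 at 48 h (adjusted p = 0.0923). Ctsa, for the serine carboxypeptidase that protects beta-galactosidase and neuraminidase, differed by 0.26 (adjusted p = 0.0830) and 0.23 (adjusted p = 0.138). Ctso differed by 0.30 at 24 h (adjusted p = 0.105, blocked by batch 0.0265) and by 0.18 at 48 h. The aspartic protease gene Ctse and the cysteine protease gene Ctsf differed by -0.13 and -0.14 at 24 h and by -0.07 and 0.05 at 48 h.

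Cathepsins S and H had their lowest means at 24 h. Ctss, for the cysteine protease that trims the class II invariant chain in antigen-presenting cells, stood at 9.10, 8.94, 9.77, 9.05 and 9.28 at 0 h. It ran from 8.22 over 8.78 to 9.11 at 24 h and from 8.75 over 8.95 to 9.46 at 48 h. The batch differences at 24 h were all negative, from -0.89 to -0.31, although the arrays of the times overlapped. The difference was -0.51 ± 0.16 at 24 h (adjusted p = 0.0596, blocked by batch 0.0205) and -0.24 ± 0.16 at 48 h (adjusted p = 0.449).

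The last comparison, 48 h against 24 h, asked what differed between the first and the second day of culture. Ctsh, for the aminopeptidase cathepsin H, was the single member past the test, higher at 48 h, while 0 were lower. In this comparison 0.429% of all genes and 0.646% of those above the table's median were higher, against 1 of 42 members (2.38%), and 0.33% of all genes were lower. Among members above the table's median 2 were higher at 48 h without overlap, Ctsc and Ctsh, against 1.33% of genes above it. Atp6ap2 was lower without overlap, with a difference of -0.11 (adjusted p = 0.404), and 0.806% of genes above the table's median were lower without overlap. Ctsh stood at 6.77, 6.14, 6.55, 6.38 and 6.16 at 0 h, ran from 5.76 over 5.96 to 6.18 at 24 h and from 6.19 over 6.78 to 7.06 at 48 h. The 24 h and 48 h arrays did not overlap. The rise from 24 h to 48 h was 1.66-fold (0.73 ± 0.14, adjusted p = 0.0209), positive in 6 of 6 batches. It was lost without the 24 h array of batch 2 or the 48 h array of batch 2 or 5 (highest adjusted p = 0.0609), and also when only the 5 batches with all 3 times were used (adjusted p = 0.0732). The second probe set of Ctsh differed by 0.75 ± 0.16 between 24 h and 48 h and did not pass (adjusted p = 0.0527). Its arrays of these times overlapped. Against 0 h, Ctsh differed by -0.44 ± 0.15 at 24 h (adjusted p = 0.0757, blocked by batch 0.0463; lower in 5 of 5 batches) and by 0.29 ± 0.15 at 48 h (adjusted p = 0.261).

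The LAMP genes encode the pair of heavily glycosylated proteins that line the inner face of the lysosomal membrane. Lamp2, of which 1 form serves chaperone-mediated autophagy, stood at 11.33, 11.28, 11.29, 11.34 and 11.22 at 0 h. It ran from 11.59 over 11.69 to 11.78 at 24 h and from 11.46 over 11.64 to 11.84 at 48 h. Both later times lay above every 0 h array. The rise was 1.32-fold at 24 h (0.40 ± 0.07, adjusted p = 0.000601) and 1.25-fold at 48 h (0.33 ± 0.07, adjusted p = 0.00439), in 5 of 5 batches.

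Lamp1 stood at 11.63, 11.70, 11.57, 11.68 and 11.80 at 0 h, from 11.44 over 11.59 to 11.65 at 24 h and from 11.59 over 11.64 to 11.71 at 48 h. Its difference was -0.10 ± 0.06 (95% interval -0.23 to 0.02, adjusted p = 0.362) at 24 h and -0.03 ± 0.06 (-0.15 to 0.09, adjusted p = 0.845) at 48 h. The arrays of the 3 times overlapped. Lamp1 holds the most copies of CACGTG among the 32 members with a promoter window, and Lamp2 holds none. Whether the motif bears on the levels of either gene was not tested.

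Of the 42 genes, 22 were measured by more than 1 probe set. Over all 84 probe sets of the members, 16 were higher and 1 lower at 24 h and 18 higher and 0 lower at 48 h, against 3.86% higher and 4.72% lower of all 45037 probe sets at 24 h and 4.67% and 3.8% at 48 h. Probe sets of the same gene are not independent. No gene had probe sets that passed in opposite directions. All 5 probe sets of Ctsb were higher at 24 h, by 0.34 to 1.26, and 2 of the 5 passed at 48 h. The mean of 1 of them lay just under the table's median (3.519 against 3.522), and its 24 h and 0 h arrays overlapped. The 4 probe sets of Lamp2 differed by 0.23 to 0.69 at 24 h, of which 3 passed, and by -0.01 to 0.59 at 48 h, of which 2 passed.

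For several genes another probe set passed where the representing one did not. One of Atp6v0a1, the V0 subunit a1, differed by 0.76 ± 0.12 at 24 h and 0.61 ± 0.12 at 48 h, against 0.12 and 0.04 for the representing one. One of Atp6v1g1 differed by 0.55 ± 0.08 and 0.61 ± 0.08, against -0.01 and -0.19. The other 2 of Ctsz passed at both times, with 0.57 and 0.67 at 24 h and 0.68 and 0.59 at 48 h. The second probe set of Ctsh was lower at 24 h (-0.62 ± 0.17, adjusted p = 0.0307), and 1 of Atp6v1c1 was higher at 24 h (0.41 ± 0.09, adjusted p = 0.00786). What parts of the transcripts these probe sets read was not examined here.

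**Figure D3:**
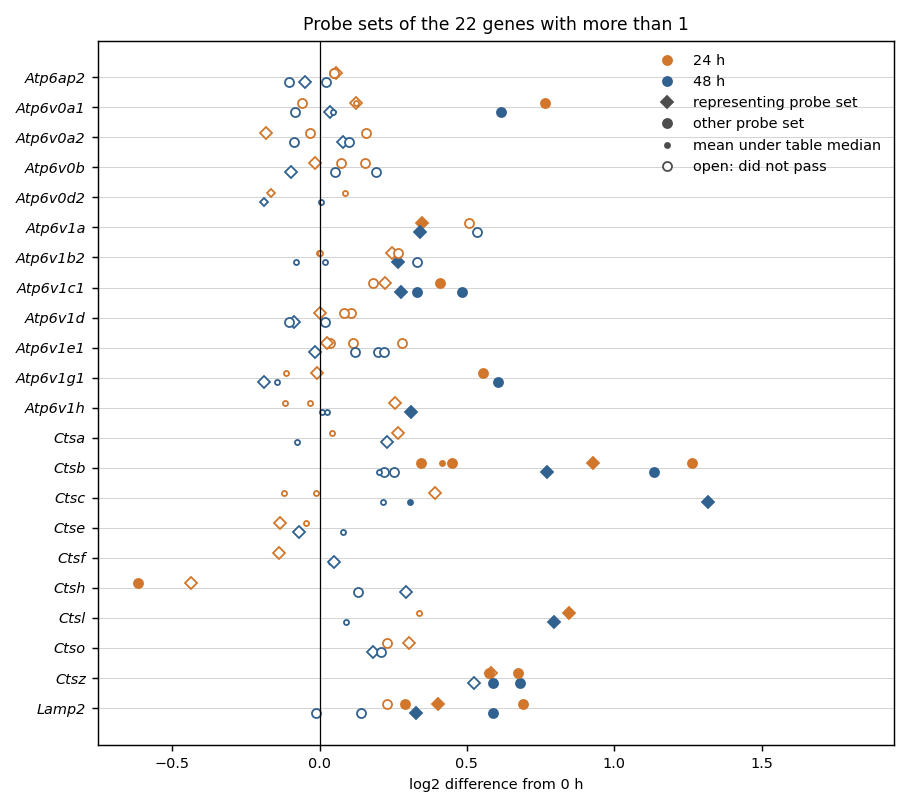
Log2 difference from 0 h (x axis) of each probe set of the 22 genes with more than 1 (y axis), at 24 h (orange) and 48 h (blue); diamonds are the representing probe sets, small points have a mean under the table's median, and filled points passed the test. The probe sets of Ctsb spread from 0.34 to 1.26 at 24 h, and Atp6v0a1 and Atp6v1g1 each have 1 filled probe set far to the right of the representing one.

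Other genes of the lysosome were taken from fixed lists. For the lists here and below, the shares to set beside each count are those over all genes. Over all genes, 5.44% were higher and 6.66% lower at 24 h, and 6.45% and 5.27% at 48 h. Among genes above the table's median, the shares were 7.96% and 8.96% at 24 h, and 9.44% and 6.51% at 48 h. Of 11 measured genes for the a3 subunit and for assembly or regulation of the pump, 1 was higher and 2 lower at 24 h, and 1 higher and 2 lower at 48 h (median differences -0.04 and -0.08). Oxr1, for a TLDc-domain protein of a family that promotes disassembly of the pump, fell by 0.77 at 24 h (SE 0.07, adjusted p = 1.25e-06) and by 0.46 at 48 h. Rogdi, for a subunit of the assembly factor RAVE, was higher at 24 h (0.54 ± 0.16, adjusted p = 0.0380), and the call failed in 9 of 17 leave-one-out fits. The assembly factor gene Tmem199 was higher at 48 h (0.43 ± 0.08, adjusted p = 0.00225). Vma21, another assembly factor gene, was lower at 48 h (-0.24 ± 0.07, adjusted p = 0.0460, blocked by batch 0.0917), a call lost in 12 of these 17 fits. Tcirg1, for the a3 subunit of osteoclasts, differed by -0.19 and -0.16 and did not pass.

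Of 33 other lysosomal hydrolases, 8 were higher and 4 lower at 24 h, and 6 higher and 0 lower at 48 h (medians 0.05 and 0.08). All 33 lay above the table's median, where 7.96% of genes were higher and 8.96% lower at 24 h, and 9.44% and 6.51% at 48 h. Acp5, for the acid phosphatase of osteoclasts and macrophages, rose from a mean of 3.91 (SD 0.31) on the 5 fresh arrays to 5.95 (SD 0.14) on the 6 arrays of 24 h and 6.30 (SD 0.22) on the 6 of 48 h. Its differences were 2.04 ± 0.13 (adjusted p = 7.17e-09) and 2.39 ± 0.13 (adjusted p = 7.64e-10), and 1 of its 0 h arrays lay under the table's median. Gla, for alpha-galactosidase A, was higher by 0.67 at 24 h (adjusted p = 0.0403, blocked by batch 0.0750) and by 0.90 at 48 h, and the first call failed in 9 of 17 leave-one-out fits. Lgmn, for the protease legumain, which processes cathepsins, was higher by 0.46 at 24 h (adjusted p = 0.0334, blocked by batch 0.0513, lost in 5 leave-one-out fits) and by 0.89 at 48 h (adjusted p = 0.000207). Galns, for a sulfatase of keratan sulfate, was higher at 24 h by 0.87 ± 0.22.

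Of 23 genes for other lysosomal membrane and transport proteins, 3 were higher and 3 lower at 24 h and 1 higher and 1 lower at 48 h (medians 0.02 and 0.07). Cd68, for a LAMP-like glycoprotein abundant in macrophages, was higher by 1.84 ± 0.15 at 24 h (adjusted p = 2.32e-07) and by 2.16 ± 0.15 at 48 h. Sidt2 was higher at 24 h (0.60 ± 0.13). Laptm5, for a lysosomal protein of blood cells, was lower at 24 h (-0.66 ± 0.12, adjusted p = 0.000921) and higher at 48 h than at 24 h (0.65 ± 0.11, adjusted p = 0.0107). The differences of Laptm5 had the other sign once _x_at and _s_at probe sets were left out. Gm2a, for an activator of ganglioside breakdown, was lower at both times (-0.44 and -0.35), and the call at 48 h was lost without the 0 h array of batch 3, 4 or 6.

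**Figure D4:**
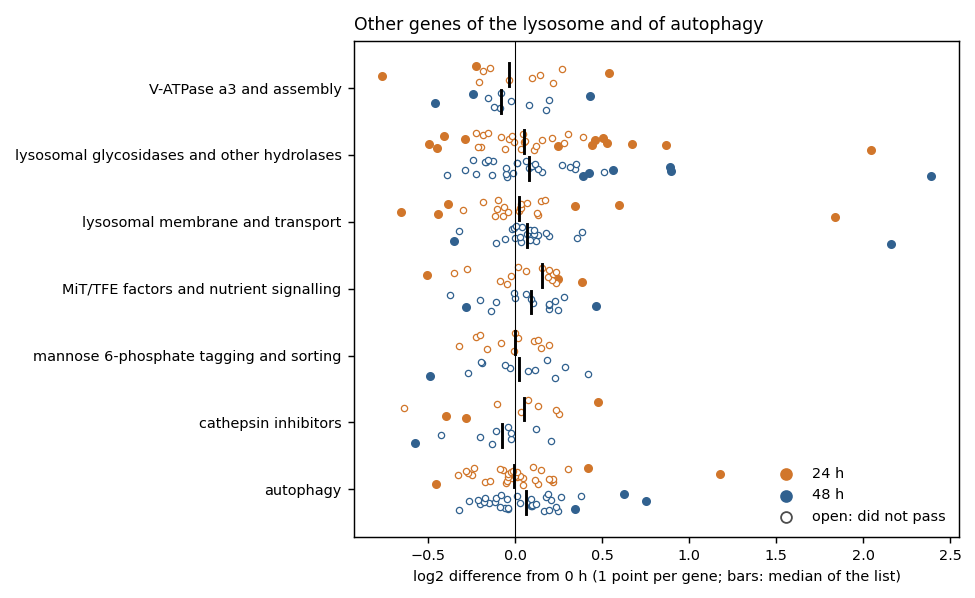
Log2 difference from 0 h (x axis) of the genes in 7 lists of the lysosome, its regulation and autophagy (y axis, 1 point per gene), at 24 h (orange) and 48 h (blue), with black bars at the median of a list and filled points where the test passed. The medians lie between -0.08 and 0.16, while Acp5, Cd68 and Sqstm1 stand far to the right.

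Transcription factors that bind the CLEAR element, and the nutrient signalling proteins on the lysosome that control them, formed another list. Of 17 measured genes, 2 were higher and 1 lower at 24 h, and 1 was higher and 1 lower at 48 h (medians 0.16 and 0.09). Tfeb differed by 0.16 ± 0.12 (adjusted p = 0.535) at 24 h and by 0.06 at 48 h. Tfe3 differed by -0.28 ± 0.12 (adjusted p = 0.199) and -0.38 ± 0.12 (adjusted p = 0.0621). Mitf was lower at 24 h (-0.51 ± 0.14, adjusted p = 0.0243), and the call failed in 6 of 17 leave-one-out fits. Lamtor2, for a part of the Ragulator scaffold, was higher at 48 h (0.47 ± 0.11, adjusted p = 0.0135). Lamtor1, of the same scaffold, was lower (-0.28 ± 0.08, adjusted p = 0.0353, blocked by batch 0.0936), and the folliculin partner gene Fnip2 was higher at 24 h (0.39 ± 0.11, adjusted p = 0.0409). The calls of Lamtor1 and Fnip2 were lost in 6 and 8 of the 17 fits. Transcript levels do not measure the passage of these factors into the nucleus.

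Of 10 measured genes on the list of cathepsin inhibitors, 1 was higher and 2 lower at 24 h, and 0 higher and 1 lower at 48 h. Only 5 of the 10 had a mean above the table's median. Cst3, for the secreted inhibitor cystatin C, was lower at 24 h (-0.28 ± 0.08, adjusted p = 0.0346), and the call failed in 7 of 17 leave-one-out fits. Cst6, for cystatin M/E and close to the table's median, was lower by 0.40 at 24 h (adjusted p = 0.0336, blocked by batch 0.101) and by 0.58 at 48 h (adjusted p = 0.00281). The 1 higher at 24 h was Serpinb9, for an inhibitor of granzyme B, so that this rise is not one of a known cathepsin inhibitor. Its difference was 0.48 ± 0.12 (adjusted p = 0.0167), but it did not pass without the 0 h array of batch 4 (adjusted p = 0.0596).

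Several cathepsins are abundant in macrophages and dendritic cells, and markers of these cells also differed between the times. The markers that passed against 0 h were mostly lower, whereas the cathepsins that passed against 0 h by their representing probe sets were higher. Cd68, which was higher at both times, was counted above among the lysosomal membrane proteins and not among these markers. Of 24 measured markers, 18 had a mean above the table's median. At 24 h 0 were higher and 11 lower, at 48 h 1 was higher and 7 lower, and between 24 h and 48 h 3 were higher and 2 lower. Over all genes, 5.44% were higher and 6.66% lower at 24 h, and 6.45% and 5.27% at 48 h. Between 24 h and 48 h the shares were 0.429% and 0.33%. The mean over the list ran from 5.05 to 5.57 on the 0 h arrays, between 4.50 and 4.76 on those of 24 h and between 4.62 and 4.95 on those of 48 h. Csf1r, for the receptor of macrophage colony-stimulating factor, differed by -1.58 ± 0.14 at 24 h and -1.21 ± 0.14 at 48 h, and the complement gene C1qa by -1.24 ± 0.30 at 24 h. Adgre1, for F4/80, differed by -0.58 and -0.38 (the latter with an adjusted p = 0.0301, blocked by batch 0.0614), and Cx3cr1 lay near background at every time.

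The macrophage lysozyme gene Lyz2 was lower at 24 h (-0.85 ± 0.19, adjusted p = 0.00751) and higher at 48 h than at 24 h (1.54 ± 0.18, adjusted p = 0.000727), so that its mean was lowest at 24 h, as were those of Ctsh and Ctss. H2-Aa, for a class II antigen chain, was lower at 24 h (-1.69 ± 0.19) and lower again at 48 h (-2.58 ± 0.19 against 0 h). The part of macrophages and dendritic cells in the values of Ctss, Ctsh, Ctsc, Ctsk, Acp5 and Cd68 was not tested.

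**Figure D5:**
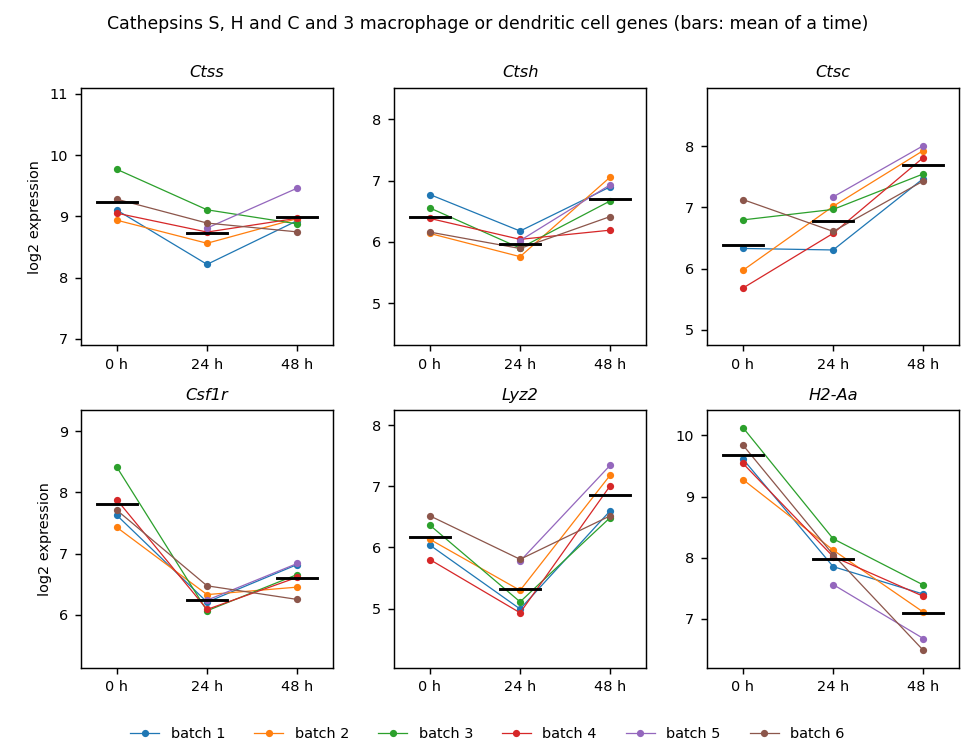
Log2 expression (y axis) at the 3 times (x axis, in hours) of the cathepsin genes Ctss, Ctsh and Ctsc and of the macrophage or dendritic cell genes Csf1r, Lyz2 and H2-Aa, with a line for each batch and a black bar for the mean of a time. The means of Ctss, Ctsh, Csf1r and Lyz2 are lowest at 24 h, that of Ctsc is highest at 48 h, and that of H2-Aa falls at each step.

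Markers of other cells that can accompany islets also differed between the times. The shares of all genes were 5.44% higher and 6.66% lower at 24 h, and 6.45% and 5.27% at 48 h. Of 13 fibroblast and stellate cell markers, 1 was higher and 4 lower at 24 h and 4 higher and 2 lower at 48 h, and the list mean lay between 4.86 and 5.13 at 0 h, between 4.44 and 4.51 at 24 h and between 4.67 and 5.11 at 48 h. The collagen gene Col3a1 stood at -1.10 ± 0.21 at 24 h and 1.71 ± 0.21 at 48 h. Col1a1 lay near background, and Pdgfrb did not pass in any comparison. Of 15 endothelial markers, 1 was higher and 6 lower at 24 h and 0 higher and 10 lower at 48 h, with Kdr at -1.04 and -1.87 and with Pecam1 and Cdh5 near background. Of 15 acinar markers, 0 were higher and 2 lower at 24 h and 0 higher and 7 lower at 48 h, and their mean ran from 5.40 to 8.13 on the 0 h arrays. Of 8 duct markers, 3 were higher and 1 lower at 24 h and 2 higher and 0 lower at 48 h. None of 7 neutrophil markers passed at any time, with S100a8, S100a9 and Mpo under the table's median, and of 13 lymphocyte markers 1 was lower at 48 h (Cd79b, near background). Only 1 of the 7 neutrophil and 3 of the 13 lymphocyte markers had a mean above the table's median. The part of these cells in the members' differences was not tested.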

How the data were processed

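Islet RNA was hybridised to single-colour arrays with 1 array per batch and time. The authors deposited log2 values, and the submitters' processing notes name RMA for them; no version is stated there. RMA corrects background, makes the arrays' distributions alike (quantile normalization) and combines the probes of each probe set. It therefore hides a shift common to most transcripts and shrinks differences of weakly measured genes. Base 2 was read off the values' range, 1.55 to 13.81. The number of arrays limits the precision.

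Removing 64 controls from 45101 probe sets gave 45037, all of which entered the test at any level. The platform's annotation gave 1 symbol to 34945, several to 932 and none to 9160. Times were compared with limma 3.58.1 in R 4.3.3 (lmFit and eBayes, 1 mean per time, all 17 arrays, Benjamini-Hochberg over the 45037 probe sets, adjusted p under 0.05). On simulated data for 24 h against 0 h over 45037 probe sets, 61% of 100 shifts of 0.5 and 94% of 100 shifts of 1 were recovered, with 9 false calls.

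The members and the lists (7 of pathways, 9 of markers) were chosen with earlier results of these data known. Values at 0 h are given for each array, and those at 24 h and 48 h as lowest, median and highest, for Lamp1, Lamp2, Ctsb, Ctsd, Ctsl and Atp6ap1 and for up to 4 members of a role that rose most or fell most past the threshold, and up to 4 passing genes of a pathway list are named. Ctsh, Ctss, Ctsz, Ctsa and Ctso were added after their values were seen.

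The design text states which arrays share a batch. Of 16 same-batch pairs, 4 had deviations from their time means that correlated above 0.1 (median 0.00545). The value with the batch as a block is printed beside a result where it changes the call. Alternatives to these choices were a fixed block for batch or a random one, only batches with all times, weights for arrays, centring on medians, a second quantile normalization, a level filter, leaving out _x_at and _s_at probe sets, the mean of a gene's probe sets, an intensity trend, only the arrays compared, and each array left out in turn. Leaving out both arrays that stood apart was chosen after seeing the data.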

Additional observations from a re-analysis of the deposited data

Results flagged for a closer look

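Some arrays stood apart from the others of their time by Dixon's criterion, in 5 of 123 sets of arrays examined over the named genes (chance gives about 1 in 20). Ctss stood at 9.46 on the 48 h array of batch 5, against 8.75 to 8.97 on the others. The other 4 concerned genes outside the pump, cathepsin and LAMP genes. Rogdi stood at 7.63 on the 24 h array of batch 5, against 8.60 to 8.67, and at 7.68 on the 48 h array of batch 4, against 8.11 to 8.30. Lamtor2 stood at 7.72 on the 24 h array of batch 6, against 8.27 to 8.33. Wipi1, an autophagy gene, stood at 6.99 on the 24 h array of batch 5, against 7.70 to 7.86.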

How the results depend on the processing

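The number of members past the threshold at 24 h against 0 h (5) was 9 with the batch as a fixed block, 9 with array weights, 11 with the mean of a gene's probe sets and 8 with an intensity trend, and 5 to 8 when 1 array was left out. At 48 h against 0 h (9) it was 5 after quantile normalization again and 5 to 9 when 1 array was left out, and the fixed replicate block gave 6. At 48 h against 24 h (1) it was 0 in complete batches and 2 with a random block, array weights, median centring, a filter on level, the mean of probe sets, an intensity trend, only the arrays compared or without both arrays that stood apart, and 0 to 2 when 1 array was left out. Without both arrays that stood apart it was 6 at each time against 0 h. These are counts of members alone, and the shares of all genes under each setting are not given here. Of 123 results for 41 named genes, 3 took the other sign, all without _x_at and _s_at probe sets: "Laptm5, 24 h against 0 h" gave 0.28, "Laptm5, 48 h against 24 h" gave -0.29 and "Wipi1, 48 h against 0 h" gave -0.050. The cause was not tested. In 2091 fits of a named gene that left out 1 array, 120 lost and 32 gained a call. In 1467 with another setting, 60 lost and 51 gained a call. Levels near the table's median limit what can be said of Ctsk and of the 11 members under it.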

Other observations

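Autophagy, which delivers cell contents to lysosomes, was read from a list of 34 measured genes. At 24 h 2 were higher and 1 lower, and at 48 h 3 were higher and 0 lower (median differences -0.01 and 0.06). All 34 lay above the table's median, where 7.96% of genes were higher and 8.96% lower at 24 h, and 9.44% and 6.51% at 48 h. Sqstm1, for the cargo receptor p62, rose from a mean of 10.08 (SD 0.15) on the 5 fresh arrays to 11.26 (SD 0.19) on the 6 arrays of 24 h and 10.84 (SD 0.14) on the 6 of 48 h. The rise was 2.26-fold at 24 h (1.18 ± 0.10, adjusted p = 2.73e-07) and 1.69-fold at 48 h (0.75 ± 0.10, adjusted p = 5.52e-05). Wipi1, for a protein of the forming autophagosome, was higher by 0.42 at 24 h (adjusted p = 0.0334), and the call failed in 8 of 17 leave-one-out fits, and by 0.63 at 48 h (adjusted p = 0.00208). The value of Wipi1 at 48 h had the other sign without _x_at and _s_at probe sets. Atg13, for a part of the initiating kinase complex, was lower at 24 h (-0.45 ± 0.11, adjusted p = 0.0137). Atg3, for an enzyme of LC3 lipidation, was higher at 48 h (0.35 ± 0.10, adjusted p = 0.0286, blocked by batch 0.0646).

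Genes for mannose 6-phosphate tagging and sorting, which bring hydrolases to the lysosome, were 12. At 24 h 0 passed, and at 48 h 1 was lower, the adaptor gene Gga1 (-0.49 ± 0.12, adjusted p = 0.0158). The share of all genes that were lower was 6.66% at 24 h and 5.27% at 48 h. Of 10 beta cell markers, 0 were higher and 7 lower at 24 h and 0 higher and 5 lower at 48 h. Of 8 markers of other endocrine cells, 0 were higher and 5 lower at 24 h and 0 higher and 2 lower at 48 h.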
